A study of Drosophila melanogaster with 5 samples.

Results

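In blood cells of fruit fly larvae, 150 of 18769 array probe sets stood at least 2-fold above the control strain in 3 mutant stocks and within 2-fold of it in the spen stock. A probe set is a group of short probes read as 1 value for a transcript. The 150 were selected on the measured values themselves, by a rule with 3 conditions on the log2 level, the scale on which 1 unit is a doubling. The E(spl) level, the Su(H) level and the EGFR level each had to exceed the control by at least 1. Each of these 3 levels had to reach 4.5, and the level in spen had to differ from the control by less than 1 in either direction. The differences from control are therefore given as a description of how the probe sets were chosen, and they support nothing. All of them share the single control array. Of the 150 probe sets, 129 carried 1 gene in the platform annotation, 2 carried several genes and 19 carried none. The 129 stood for 127 genes, since mthl4 and Mf had 2 selected probe sets each. Among the 127 genes, 36 are known only by a CG number.

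Each of the 5 groups was a single array of hemocytes from Drosophila melanogaster larvae of the third instar. The E(spl) group was the stock E(spl)rvl, BL199, and the Su(H) group was Su(H)l(417), BL417, both labelled as loss of function. The EGFR group was BL1564, labelled EGFR(1564) and as gain of function. The spen group was spen(GE10359), with a P-element in the UTR of spen and labelled as loss of function. The control was W1118. For every array 200 to 300 larvae were bled together, and their total RNA (1.0 to 1.3 µg) was amplified before labelling in all 5 groups. The labels do not say whether larvae were homozygous, nor which balancers or other alleles the stocks carried. With 1 array per group there are no replicates, so no test of any difference between stocks was possible, and higher and lower describe these 5 arrays only. In pooled cells, fewer cells of a type and less RNA per cell cannot be told apart, and genetic background and stock cannot be told apart either.

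Fly hemocytes are mainly plasmatocytes, which engulf microbes and debris. A minority are crystal cells, which store the prophenoloxidases that make melanin, and lamellocytes, which wrap large foreign bodies, are rare in larvae that are not infested by wasps. Su(H) is the DNA-binding factor of the Notch pathway, the E(spl) complex encodes repressors that Notch switches on, EGFR signals through Ras, and Spen is a large nuclear RNA-binding protein linked to these pathways.

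The arrays carried strong plasmatocyte RNA, and none of 8 plasmatocyte markers differed from control by 1 or more in any stock. In a longer list of 18 named plasmatocyte genes, 1 was lower by 1 or more in each of E(spl), Su(H), EGFR and spen. None was higher in E(spl), Su(H) or EGFR, and 2 were higher in spen. Over all named genes 4.37%, 4.74%, 2.92% and 1.82% were higher and 10.4%, 10.1%, 7.03% and 9.86% were lower. The log2 of the summed levels of the 8 markers was 16.33 in E(spl), 16.41 in Su(H), 16.48 in EGFR, 15.84 in spen and 16.23 in control. The Bacillus control probe sets, which have no target in fly RNA and give the background, reached at most 4.33, 4.28, 4.40, 4.78 and 4.33 in that order of arrays. Some measures of RNA quality had the order of the grouping that the rule uses, and others did not. The 3' probe set exceeded the middle one, averaged over actin, eIF4a and GAPDH, by 2.14 in E(spl), 2.59 in Su(H), 1.90 in EGFR, 1.74 in spen and 1.57 in control. For actin alone the values were 2.02, 2.39, 1.73, 1.18 and 1.08 in the same order, so E(spl), Su(H) and EGFR all stood above spen and control. For GAPDH alone they were 2.22, 2.57, 2.27, 2.15 and 2.20 in that order, so only Su(H) stood apart from control there. For eIF4a alone EGFR (1.69) lay below spen (1.88), and the mean 3' minus 5' difference was 7.48 in E(spl), 8.10 in Su(H), 7.67 in EGFR, 7.56 in spen and 7.58 in control. The part of RNA quality in the selection was not tested. The brighter spen probe set stood at 4.90 in spen and 9.79 in control, and Egfr stood under 4.5 on all 5 arrays.

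Across the whole array, 3.68% of probe sets met the condition on E(spl), 4.03% that on Su(H) and 2.59% that on EGFR. All 3 were met by 1.09%. Among these, spen was higher than control by 1 or more in 15, lower by 1 or more in 40 and in between in the 150, which are 0.799% of the array. Over all 11982 named genes, 1.82% were higher and 9.86% lower by 1 or more in spen. Most genes were thus called neither way in spen, and lying in between is not particular to the 150. The median level of the 150 was 8.27 in E(spl), 8.39 in Su(H), 8.21 in EGFR, 6.18 in spen and 6.26 in control. The spen and control medians thus lay together, about 2 units under the other stocks. The median difference from control was 1.73 in E(spl), 1.77 in Su(H), 1.57 in EGFR and -0.02 in spen, against 0.07, 0.05, 0.05 and 0.09 over all 18769 probe sets. In folds, the first 3 medians were 3.32, 3.41 and 2.97. Inside its limits spen went both ways, with 74 probe sets above control and 76 below, and 95 lay within 0.5 of it.

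**Figure D1:**
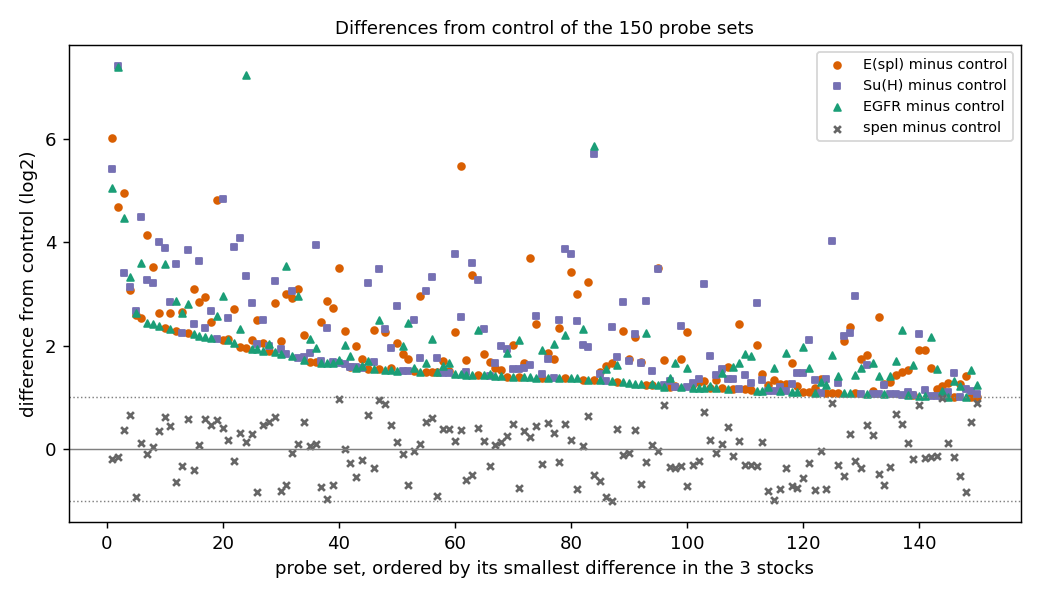
Differences from control (log2, vertical axis) of the 150 probe sets, ordered along the horizontal axis by the smallest of the E(spl), Su(H) and EGFR differences; dotted lines mark 1 and -1, the limits of the rule. The first 4 probe sets lie above 3 in all 3 stocks, most of the list lies between 1 and 2, and the spen crosses scatter on both sides of 0.

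Most of the list lay near the threshold. Its size also rested on the array with the fewest higher probe sets, since without the EGFR condition 295 probe sets met the rule. The smallest of the 3 differences was 2 or more in 22 probe sets, 1.5 or more in 54 and under 1.5 in 96. Just inside were TrpRS (1.00), asRNA:CR43964 (1.00) and chinmo (1.01), and just outside were Plc21C (0.998), Chro (0.997) and Whamy (0.992). At the spen limit, stac (-0.997), ATP8A (0.995) and Mcm5 (-0.978) were inside. Outside were the unnamed 1636189_at (-1.02), MYPT-75D (-1.02) and CG4607 (1.02). The level condition removed no probe set, and the dimmest level that counted was 5.09, for the unnamed 1641367_at in EGFR. As a yardstick for probe error, probe sets of the same gene had differences from control with a pooled SD of 0.59 in E(spl), 0.62 in Su(H), 0.59 in EGFR and 0.51 in spen, so a single difference just over 1 is less than 2 such SDs. In 23 of the 150 the control level was at or below the highest Bacillus control of its array, and a fold over control is then written as at least that over the Bacillus control.

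The list was led by 3 genes that are next to each other on chromosome 4. Zip102B, a member of the ZIP family of zinc transporters, stood at 11.37 in E(spl), 10.77 in Su(H), 10.41 in EGFR, 5.15 in spen and 5.35 in control. It was thus among the bright genes in 3 stocks and close to background in spen and control. Relative to control, E(spl) was 64.7-fold, Su(H) 42.9-fold and EGFR 33.4-fold higher.

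Rnf11, a RING finger protein of the ubiquitin ligase type, stood at 8.89 in E(spl), 11.62 in Su(H), 11.61 in EGFR, 4.06 in spen and 4.21 in control. Control and spen were at background, and the folds over control were at least 23.6, at least 156 and at least 156 in E(spl), Su(H) and EGFR. A second Rnf11 probe set, which the rule did not take, stood at 9.20 in E(spl), 10.75 in Su(H), 12.09 in EGFR, 8.0 in spen and 3.39 in control. That probe set was 4.61 higher in spen than in control, so the Rnf11 probe sets disagreed on spen and agreed in direction on the other stocks.

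PMCA, the plasma membrane calcium pump, stood at 9.08 in E(spl), 7.52 in Su(H), 8.59 in EGFR, 4.48 in spen and 4.11 in control on its selected probe set, at least 26.9-fold, 9.11-fold and 19.2-fold over control. Its other probe sets were bright in every stock. One stood at 11.10 in E(spl), 10.64 in Su(H), 10.58 in EGFR, 9.94 in spen and 10.09 in control. The other stood at 9.60, 8.99, 8.02, 8.73 and 8.52 in the same order. The large difference at PMCA was thus on 1 of 3 probe sets, and the annotation used does not say which transcript each reads.

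No gene of the Release 6 gene table lies between Zip102B and Rnf11 or between Rnf11 and PMCA. The nearest genes on both sides that the array names, NfI, Syt7 and Rad23 before them and Hcf and dati after them, were within 0.5 of control in E(spl), Su(H) and EGFR. Rad23, bright on every array, stood at 10.74 in E(spl), 10.58 in Su(H), 10.46 in EGFR, 10.07 in spen and 10.43 in control, while the other 4 were at background. Over the 54 probe sets of chromosome 4 that reached 4.5 on an array, the median difference from control was 0.11 in E(spl), -0.11 in Su(H), 0.00 in EGFR and -0.05 in spen. The probe sets of the chromosome as a whole thus did not share the difference of these 3 genes.

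**Figure D2:**
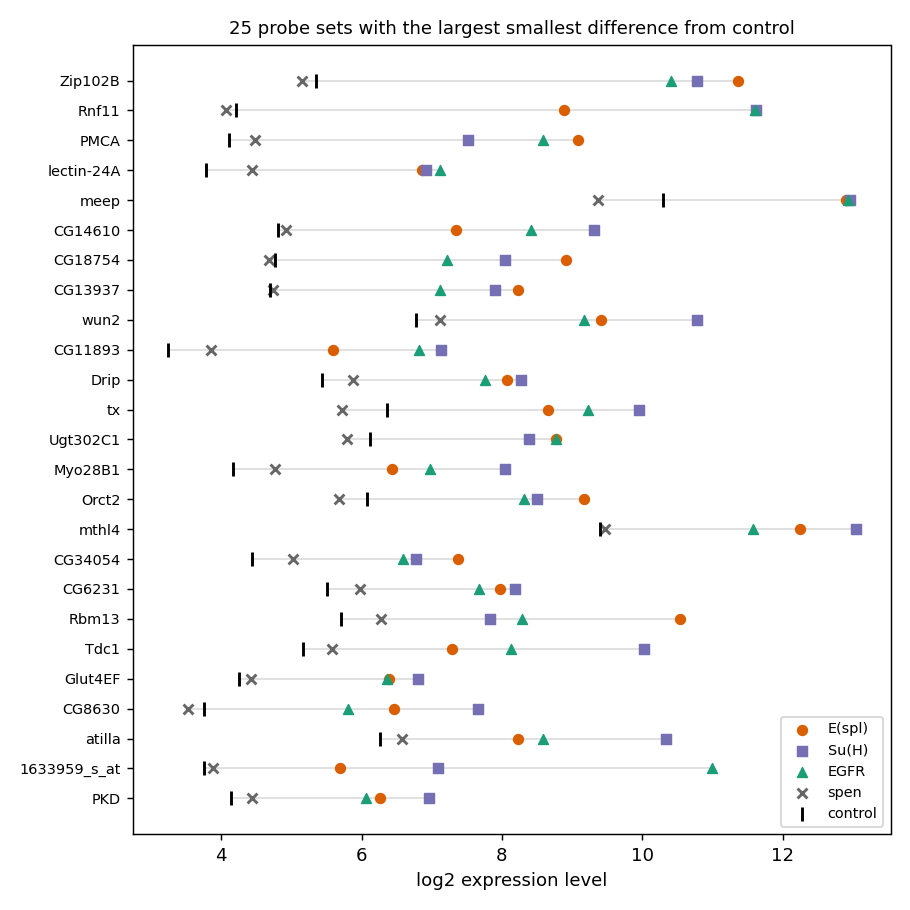
Log2 levels on the 5 arrays of the 25 selected probe sets with the largest smallest difference from control, 1 row each, named by gene or, for a probe set with several genes, by its identifier. In every row the E(spl), Su(H) and EGFR symbols lie to the right of the spen cross and the control bar, with the widest gaps at Zip102B, Rnf11 and PMCA.

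Below these in the order by smallest difference came lectin-24A and meep. The C-type lectin gene lectin-24A stood at 6.86 in E(spl), 6.92 in Su(H), 7.11 in EGFR, 4.44 in spen and 3.78 in control, so that its 3 higher stocks were nearly level. The G protein-coupled receptor gene mthl4 was, with meep, among the brightest of the leading genes, at 12.25 in E(spl), 13.05 in Su(H), 11.58 in EGFR, 9.47 in spen and 9.40 in control. Its second selected probe set gave the same order, at 10.75, 11.19, 9.81, 8.54 and 7.93. The gene meep stood at 12.90 in E(spl), 12.97 in Su(H), 12.93 in EGFR, 9.36 in spen and 10.30 in control, and its 3 higher levels spanned under 0.1.

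The lipid phosphate phosphatase genes wun and wun2, which guide germ cells in the embryo, are neighbours on 2R and were both selected. The level of wun2 was 9.41 in E(spl), 10.78 in Su(H), 9.16 in EGFR, 7.12 in spen and 6.77 in control. The level of wun was 6.74 in E(spl), 7.01 in Su(H), 6.75 in EGFR, 4.34 in spen and 5.26 in control. Both were highest in Su(H), and spen lay above control for wun2 and below it for wun. Orct2, an organic cation transporter gene, was at 9.17 in E(spl), 8.51 in Su(H), 8.31 in EGFR, 5.68 in spen and 6.08 in control. The glycosyltransferase gene Ugt302C1 was at 8.78, 8.38, 8.77, 5.79 and 6.12 in the same order. The bHLH factor gene tx was at 8.65 in E(spl), 9.95 in Su(H), 9.23 in EGFR, 5.72 in spen and 6.36 in control, a fold of 4.90, 12.05 and 7.31 over control in E(spl), Su(H) and EGFR.

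Genes known only by a number were as prominent near the top. CG14610 stood at 7.34 in E(spl), 9.31 in Su(H), 8.42 in EGFR, 4.93 in spen and 4.82 in control. CG18754 was instead highest in E(spl), at 8.92 there, 8.05 in Su(H), 7.22 in EGFR, 4.68 in spen and 4.77 in control. CG13937 followed CG18754, at 8.23, 7.91, 7.11, 4.73 and 4.70 in the same order. CG11893 and CG8630 were at background in spen and control and reached 7.14 and 7.66 in Su(H), where both were highest.

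By count, though not by share of its named genes, DNA replication had the most selected genes of the 36 functional lists used here. Of all 11982 named genes, 1.06% had a selected probe set, and of the 52 named replication genes 7 did. They were Orc1 and Orc2 of the origin recognition complex, dup, the fly Cdt1 that loads the helicase, the helicase subunits Mcm2, Mcm3 and Mcm5, and Rif1, a regulator of replication timing. Orc1 stood at 6.90 in E(spl), 7.58 in Su(H), 7.89 in EGFR, 5.63 in spen and 5.56 in control. The level of dup was 9.13 in E(spl), 9.28 in Su(H), 9.84 in EGFR, 6.98 in spen and 7.73 in control. Both genes thus had the same order of E(spl), Su(H) and EGFR, with EGFR highest, and 6 of the 7 were highest in EGFR. The rule removed replication genes that were under 1 in any of the 3 stocks, so this order describes the 7 and not the list. Over the 52 named genes the median difference from control was 0.70 in both E(spl) and EGFR. The remaining selected replication genes differed from control by less than Orc1 and dup. Mcm3 stood at 9.05 in E(spl), 9.34 in Su(H), 9.75 in EGFR, 7.58 in spen and 7.90 in control. Mcm5 stood at 9.54, 9.33, 9.78, 7.23 and 8.21, and Mcm2 at 10.75, 10.52, 10.88, 9.10 and 9.46, in the same order. Orc2, the exception that was highest in Su(H), stood at 7.99, 8.26, 8.02, 6.83 and 6.75, and Rif1 at 7.95, 7.80, 8.34, 6.64 and 6.78.

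The replication list as a whole went the same way, although most of its genes were under the threshold. With each gene taken as the mean of its probe sets, 17 of 52 genes were higher than control by 1 or more in E(spl), 16 in Su(H), 15 in EGFR and 1 in spen. Over all named genes the corresponding shares were 4.37%, 4.74%, 2.92% and 1.82%. None of the 52 was lower by 1 or more in E(spl), Su(H) or EGFR and 2 were in spen, where the shares over all named genes were 10.4%, 10.1%, 7.03% and 9.86%. The median difference of the list was 0.70 in E(spl), 0.58 in Su(H), 0.70 in EGFR and -0.26 in spen. The list was put together with earlier results of these data known, so these counts describe it and test nothing.

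Of 72 named genes of mitosis and cytokinesis, 2 were selected. Incenp, of the chromosomal passenger complex, stood at 9.56 in E(spl), 9.57 in Su(H), 9.79 in EGFR, 7.72 in spen and 7.98 in control. The spindle kinesin gene Klp61F stood at 10.66, 10.92, 10.55, 8.69 and 9.44 in the same order. The list had 14 genes higher by 1 or more in E(spl), 17 in Su(H), 14 in EGFR and none in spen, and 1, 1, 0 and 8 were lower. Over all named genes 4.37%, 4.74%, 2.92% and 1.82% were higher. The shares lower were 10.4%, 10.1%, 7.03% and 9.86%, and the last, for spen, is close to the share of this list. Of 37 DNA repair genes 2 were selected, Fancd2 of the crosslink repair pathway at 7.78, 7.96, 8.22, 6.15 and 6.10, and the exonuclease gene tos at 7.47, 7.42, 7.31, 5.36 and 5.98, each in the order E(spl), Su(H), EGFR, spen and control. In tos, as in Klp61F, Mcm5 and dup, spen lay over 0.6 below control and so came near the lower spen limit of the rule.

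**Figure D3:**
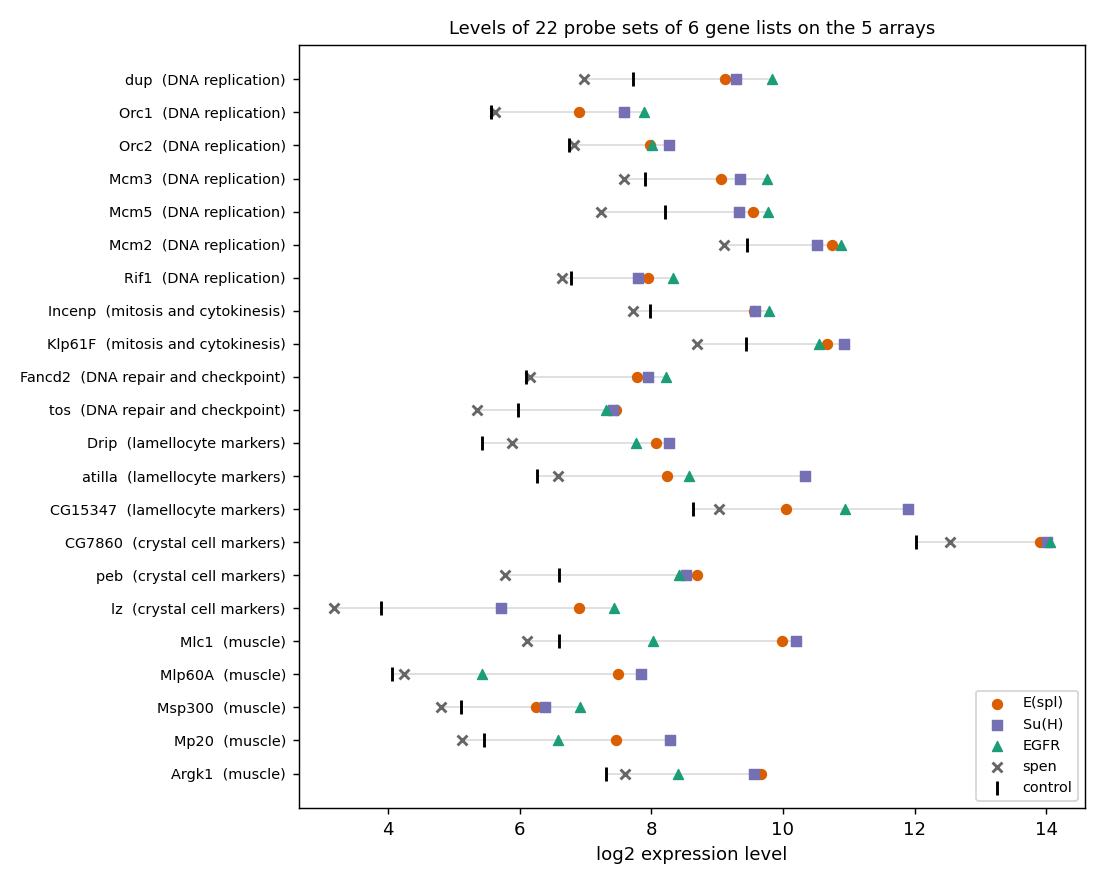
Log2 levels on the 5 arrays of 22 selected probe sets from 6 gene lists, 1 row each. The replication rows end in the EGFR triangle in 6 of 7 cases, while in 4 of the 5 muscle rows the EGFR triangle lies to the left of the E(spl) and Su(H) symbols.

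Markers of 2 minor blood cell types were among the 150. From the 14 named genes of the crystal cell list came lz, peb and CG7860. The Runx factor gene lz, which specifies crystal cells, stood at 6.90 in E(spl), 5.72 in Su(H), 7.43 in EGFR, 3.19 in spen and 3.89 in control, at least 5.94-fold, 2.63-fold and 8.57-fold over control. The zinc finger factor gene peb stood at 8.69 in E(spl), 8.53 in Su(H), 8.43 in EGFR, 5.78 in spen and 6.59 in control. CG7860 stood at 13.91, 14.02, 14.05, 12.54 and 12.01 in the same order. In spen, peb was 0.81 lower than in control and CG7860 was 0.53 higher, while lz was at background in both.

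The prophenoloxidase genes of crystal cells moved far less. PPO1 was at 14.54 in E(spl), 14.53 in Su(H), 14.57 in EGFR, 13.83 in spen and 14.26 in control, and PPO2 was at 14.44, 14.53, 14.55, 13.49 and 14.20. Both were near the top of the array's range. The summed level of the 6 crystal cell markers was 16.14 in E(spl), 16.13 in Su(H), 16.09 in EGFR, 14.98 in spen and 15.63 in control on the log2 scale. Of the 14 named crystal cell genes, 5, 4, 3 and 0 were higher than control by 1 or more in E(spl), Su(H), EGFR and spen, and 0, 0, 1 and 4 were lower. The shares over all named genes were 4.37%, 4.74%, 2.92% and 1.82% higher and 10.4%, 10.1%, 7.03% and 9.86% lower. CG17109, the sixth marker in the sum, went against the selected ones in EGFR and stood at 13.32 in E(spl), 12.91 in Su(H), 11.90 in EGFR, 7.44 in spen and 12.95 in control.

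From the 18 named genes of the lamellocyte list came atilla, Drip and CG15347, all 3 highest in Su(H). The gene atilla, which encodes the L1 surface antigen of lamellocytes, stood at 8.23 in E(spl), 10.34 in Su(H), 8.58 in EGFR, 6.58 in spen and 6.26 in control, a fold of 3.93, 16.9 and 5.0 over control in E(spl), Su(H) and EGFR. The aquaporin gene Drip stood at 8.07 in E(spl), 8.27 in Su(H), 7.76 in EGFR, 5.88 in spen and 5.43 in control. CG15347 stood at 10.05, 11.91, 10.94, 9.03 and 8.63 in the same order. For all 3 genes spen lay above control by 0.32 to 0.45. The other lamellocyte markers differed among themselves. ItgaPS5, an integrin gene, was at 9.23 in E(spl), 9.38 in Su(H), 9.75 in EGFR, 6.10 in spen and 7.13 in control, and so missed the rule by its spen difference of -1.03. The integrin gene ItgaPS4 was at 9.35 in E(spl), 11.31 in Su(H), 8.56 in EGFR, 8.48 in spen and 7.69 in control, and the prophenoloxidase gene PPO3 was within 0.8 of control in every stock. The tubulin gene betaTub60D stood at 11.57 in E(spl), 13.44 in Su(H), 13.36 in EGFR, 13.49 in spen and 13.36 in control. The summed level of 7 markers was 12.67 in E(spl), 14.31 in Su(H), 13.88 in EGFR, 13.67 in spen and 13.53 in control, so it was below control in E(spl) although the 3 selected genes were above it there. Of the 7 markers, 5 were higher than control by 1 or more in E(spl). Only betaTub60D, the brightest of them in control, was lower there by 1 or more. Of the 18 named genes, 7, 6, 5 and 1 were higher by 1 or more in E(spl), Su(H), EGFR and spen, and 2, 0, 0 and 3 were lower, where 4.37%, 4.74%, 2.92% and 1.82% of all named genes were higher and 10.4%, 10.1%, 7.03% and 9.86% were lower.

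Muscle genes differed among the 3 stocks. The selected 5 of 28 named genes were Mlc1, a myosin light chain, the LIM protein gene Mlp60A, Msp300, a nesprin that anchors nuclei, the calponin-like Mp20 and the arginine kinase gene Argk1. Mlc1 stood at 9.98 in E(spl), 10.20 in Su(H), 8.03 in EGFR, 6.11 in spen and 6.60 in control. Mlp60A stood at 7.50 in E(spl), 7.85 in Su(H), 5.44 in EGFR, 4.24 in spen and 4.07 in control. In both, EGFR was over 1.9 below E(spl) and Su(H) and still above control. Mp20 stood at 7.47, 8.28, 6.59, 5.12 and 5.46, and Argk1 at 9.67, 9.55, 8.40, 7.61 and 7.32 in the same order. Msp300 was the exception, at 6.25 in E(spl), 6.39 in Su(H), 6.92 in EGFR, 4.80 in spen and 5.11 in control. Its other probe sets that reached 4.5 on an array did not meet the rule. Their differences from control in E(spl), Su(H), EGFR and spen were -0.58, 0.03, 1.55 and 0.045 on the brightest. They were -0.32, 0.12, -0.60 and 1.31 on another, and 0.46, 0.71, 0.24 and -0.73 on the last.

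The 4 named markers of muscle cells, Mlc1, Mlc2, Tm2 and up, of which Mlc1 was itself selected, had a summed log2 level of 11.39 in E(spl), 11.68 in Su(H), 9.08 in EGFR, 7.88 in spen and 8.07 in control. Of those that were not selected, Tm2 was at 10.10, 10.52, 7.66, 6.62 and 6.71 in that order, up was at 9.12, 9.22, 6.08, 5.81 and 5.78, and Mlc2 was at background in EGFR, spen and control. In the whole list 10 genes were higher than control by 1 or more in E(spl), 13 in Su(H), 3 in EGFR and none in spen, and 2, 1, 0 and 2 were lower. Over all named genes 4.37%, 4.74%, 2.92% and 1.82% were higher and 10.4%, 10.1%, 7.03% and 9.86% were lower. The myofilin gene Mf, with 2 selected probe sets, stood at 7.74 in E(spl), 7.81 in Su(H), 7.01 in EGFR, 6.35 in spen and 5.48 in control on the brighter one. The part of muscle tissue in the hemocyte pools in these values was not tested.

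In all, 39 of the 127 genes fell in 18 of the 36 lists, and 88 were in none. The lists held 1127 genes named on the array. The lists of plasmatocyte, fat body, salivary gland and gut genes and of the EGFR and Ras, JNK and JAK/STAT pathways held no selected gene. Each of these had 13 to 34 named genes, too few to read an absence when 1.06% of all named genes were selected. Of 31 named Notch pathway genes only H was selected, and nothing is read from that count. H encodes Hairless, the corepressor that binds Su(H), and stood at 8.30 in E(spl), 8.07 in Su(H), 7.89 in EGFR, 7.14 in spen and 6.72 in control. Its second probe set was within 0.4 of control in E(spl), Su(H) and EGFR, at 8.98, 8.72 and 8.93 with 8.34 in spen and 8.61 in control.

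Among 51 named germ line and testis genes, bam alone was selected (1.96%, against 1.06% of all named genes). The gene bam encodes a differentiation factor of germ cells that is also used as a marker in the larval lymph gland. It stood at 7.70 in E(spl), 6.36 in Su(H), 7.56 in EGFR, 4.70 in spen and 4.59 in control. In that list 24 genes were lower than control by 1 or more in E(spl), 21 in Su(H), 13 in EGFR and 25 in spen, and 2, 2, 3 and 0 were higher. Over all named genes 10.4%, 10.1%, 7.03% and 9.86% were lower and 4.37%, 4.74%, 2.92% and 1.82% were higher. The summed level of 5 testis and germ line markers was 8.69 in E(spl), 9.59 in Su(H), 10.64 in EGFR, 9.02 in spen and 11.98 in control, and the germ line marker vas was at background on all 5 arrays.

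Of 24 named clotting and melanization genes, Tdc1 and Idgf3 were selected (8.33%, against 1.06% of all named genes). In that list 2, 2, 2 and 3 genes were higher than control by 1 or more in E(spl), Su(H), EGFR and spen. In the same order 3, 2, 7 and 3 were lower. Over all named genes 4.37%, 4.74%, 2.92% and 1.82% were higher and 10.4%, 10.1%, 7.03% and 9.86% were lower. Tdc1, a tyrosine decarboxylase, stood at 7.28 in E(spl), 10.02 in Su(H), 8.13 in EGFR, 5.58 in spen and 5.17 in control. Idgf3, a chitinase-like secreted factor, stood at 9.13 in E(spl), 8.62 in Su(H), 7.92 in EGFR, 5.29 in spen and 6.26 in control. Its second probe set was at 13.68, 13.40, 13.35, 10.68 and 11.86, higher than control by 1 or more in the same 3 stocks, but 1.18 lower in spen and so outside the rule.

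The remaining listed genes were spread over other functions. The calcium-binding protein gene Scp2 stood at 9.47 in E(spl), 6.56 in Su(H), 5.46 in EGFR, 4.37 in spen and 4.0 in control. Rbm13, a gene of ribosome biogenesis, stood at 10.54 in E(spl), 7.83 in Su(H), 8.29 in EGFR, 6.28 in spen and 5.71 in control. Both were highest in E(spl) by over 2 units. The trehalose transporter gene Tret1-1 stood at 9.72 in E(spl), 11.29 in Su(H), 9.89 in EGFR, 8.74 in spen and 8.23 in control, and the integrin subunit gene Itgbn at 9.35, 10.85, 8.54, 7.23 and 7.08. Myo28B1, an unconventional myosin, stood at 6.43, 8.04, 6.98, 4.76 and 4.17. These 3 were highest in Su(H) by at least 1 unit. The Polycomb group gene escl, the deubiquitinase gene Usp12-46, Ugt36A1 and l(3)72Dn were each under 2 above control in all 3 stocks.

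The rule did not fix which of the 3 stocks was highest. Of the 150 probe sets, E(spl) had the highest level in 56, Su(H) in 62 and EGFR in 32, and 72 were lowest in EGFR. The 3 levels spanned less than 0.5 in 52 probe sets, 1 or more in 60 and 2 or more in 16. Su(H) was higher than E(spl) by 1 or more in 25 (16.7%) and lower in 13 (8.67%), where 3.98% and 2.86% of the probe sets with a level of 4.5 on either array were. EGFR was higher than E(spl) by 1 or more in 6 (4.0%) and lower in 19 (12.7%), against 7.8% and 5.18%. EGFR was higher than Su(H) in 6 (4.0%) and lower in 32 (21.3%), against 5.77% and 5.66%. The rule cut these same levels at 1 above control, and the background was not cut in that way, so nothing is read from the difference between the shares. The median differences were small, 0.06 for Su(H) minus E(spl), -0.12 for EGFR minus E(spl) and -0.16 for EGFR minus Su(H).

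The widest gaps sat on single probe sets. The unnamed 1639729_s_at stood at 8.33 in E(spl), 12.72 in Su(H), 12.86 in EGFR, 6.49 in spen and 6.99 in control. Probe set 1633959_s_at, with several genes in the annotation, stood at 5.70 in E(spl), 7.09 in Su(H), 10.99 in EGFR, 3.88 in spen and 3.75 in control. EGFR was above E(spl) by 5.30 at 1633959_s_at and by 2.72 at Rnf11. In the other direction, EGFR was below E(spl) by 4.02 at Scp2 and by 2.25 at Rbm13, and below Su(H) by 2.41 at Mlp60A and 2.32 at Itgbn. Su(H) was above E(spl) by 2.94 at CG7497, 2.74 at Tdc1 and 2.10 at atilla.

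**Figure D4:**
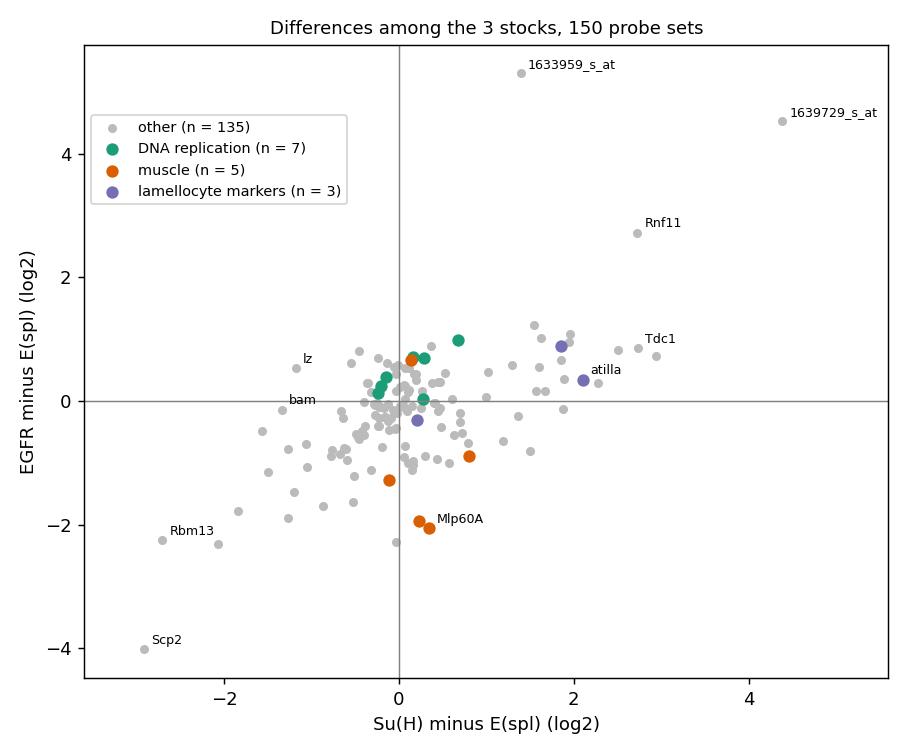
Each of the 150 probe sets by the log2 difference Su(H) minus E(spl) (horizontal axis) and EGFR minus E(spl) (vertical axis), with the replication, muscle and lamellocyte genes in colour. Most points lie near the crossing of the lines, the 7 replication genes lie above the horizontal line, and 4 of 5 muscle genes lie below it.

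The other probe sets of the same genes repeat the probe step on the same RNA, not the animals. Of the 127 genes, 97 had a single probe set on the array. The other 30 included mthl4 and Mf, and the remaining 28 genes had 66 probe sets that the rule did not take. Of these 66, 42 reached 4.5 on an array and belonged to 21 genes. In these 42, 30 (71.4%) were above control in all of E(spl), Su(H) and EGFR, against 2975 of 9117 (32.6%) of all named probe sets that reached this level. Counted by gene, 12 of the 21 had all of these probe sets above control in all 3 stocks. Only 2 of the 42, those of Rnf11 and Idgf3, were higher by 1 or more in all 3 stocks (4.76%, against 1.92%), and 15 were under 0.5 in all 3. Among all 66, these 2 are 3.03%, and the share was 9.09% with renewed quantile scaling. In spen, 36 of the 42 were within 1 of control (85.7%). Over all named genes, at any level, only 1.82% were higher and 9.86% lower by 1 or more in spen. Nothing is therefore read from the spen count. No share over the array was computed for the 12 genes or the 15 probe sets.

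The BTB factor genes lola and fru account for many of these probe sets, since both make many alternative transcripts. The selected lola probe set stood at 6.94 in E(spl), 6.65 in Su(H), 6.89 in EGFR, 4.41 in spen and 5.33 in control, while the others of lola ranged from 1.22 above control to -0.91 in the mean over the 3 stocks. The other stac probe set stood at 10.35 in E(spl), 11.29 in Su(H), 9.80 in EGFR, 7.93 in spen and 8.90 in control. It missed the rule only by its EGFR difference.

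**Figure D5:**
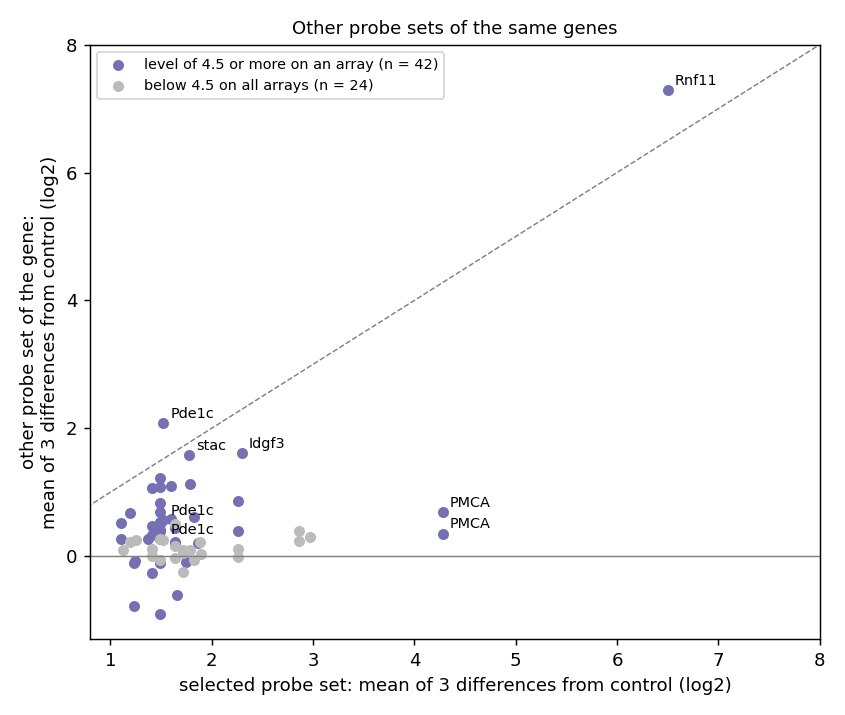
For each of 66 other probe sets, the mean of its E(spl), Su(H) and EGFR differences from control (log2, vertical axis) against that of the selected probe set of the same gene (horizontal axis), with the line of equality dashed. The Rnf11 point and 1 Pde1c point lie above the line, and most points lie between 0 and 1, well under it.

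Chromosome position was not used by the rule. The 127 genes fell on X (22), 2L (20), 2R (25), 3L (15), 3R (42) and 4 (3). Arm 3R thus held 33.1% of them against 25% of named genes, and 3L held 11.8% against 19.7%. On chromosome 4, 4.62% of 65 named genes were selected. Apart from the chromosome 4 genes, immediate neighbours were wun with wun2 and CG34054 with Drip on 2R. CG34054 stood at 7.38 in E(spl), 6.78 in Su(H), 6.60 in EGFR, 5.02 in spen and 4.43 in control. CG7763, the next gene after Drip, stood at 9.94 in E(spl), 6.96 in Su(H), 7.98 in EGFR, 6.05 in spen and 5.98 in control. Its difference in Su(H) was 0.98, just under the threshold. The aquaporin gene Prip, a few genes on, was within 0.3 of control in every stock.

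Outside the list, the probe sets whose 5 values were most like the mean profile of the 150, ranked by Pearson's r over the 5 arrays, were those of CG14545, Nnp-1, Abca3, cact and Dp1. The one for cact, the inhibitor of the Toll pathway factors, stood at 12.18 in E(spl), 12.39 in Su(H), 12.28 in EGFR, 11.39 in spen and 11.44 in control. Nnp-1 stood at 11.54, 11.67, 11.40, 10.62 and 10.52 in the same order. All 5 had the shape of the list at a smaller size, and 5 arrays are too few for r to be reported.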

How the data were processed

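The authors deposited 1 table of log2 levels for 18952 probe sets on 5 arrays. RMA, which corrects background, normalises arrays to each other and summarises probes, and the scanner software GCOS are named, without roles, versions or settings, per the submitters' processing notes. The 183 manufacturer control probe sets were left out of the selection and used for array quality and, for the Bacillus ones, as the background level and the floor of folds. Gene names came from the platform annotation, and chromosome arms and gene order from the RefSeq gene table of the assembly Release 6 plus ISO1 MT. Differences of log2 levels were computed with Python 3.11.15 and pandas 2.3.3. The code of the selection was checked on simulated data with planted differences well past the limits and little noise. That check does not show how the rule errs on real arrays. Gene lists took the mean of each gene's probe sets.

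Genes named with values were drawn from a planned rule. It covered the 25 genes with the largest smallest difference, every selected gene in a list and genes with 2 selected probe sets. It also covered the 3 on each side of each limit and the 10 with the largest difference between each pair of stocks. The 5 most alike and other probe sets of these genes completed it. Not every gene or probe set under this rule is printed, and some are printed without levels. Cell type markers were named from their own list, and neighbouring genes from the gene order. The selected genes, lists and thresholds were chosen with earlier results of these data known. No promoter or protein sequence was used here, so the planned motif counts were not made. Alternatives were another difference, spen limit or level filter, renewed quantile scaling, centring on medians, a background floor, gene means and, chosen after seeing the data, leaving out each of the 3 stocks and using spen in place of control.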

Additional observations from a re-analysis of the deposited data

How the results depend on the processing

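The largest changes in the number of selected probe sets came from changes of the rule, and the scaling also moved this number. It was 54 with a difference of at least 1.5, 252 with at least 0.8 and 95 with a spen limit of 0.5. Chosen after seeing the data, a rule without the EGFR array gave 295 and spen in place of control gave 257, of which 120 were among the 150. These alternatives loosen, tighten or replace a condition by construction. The count stayed within 1.5 times of 150 under the other 8 alternatives of the rule, the scaling and the summary. Among these, leaving out the E(spl) array gave 200 and leaving out the Su(H) array gave 193. Gene means gave 103, which counts genes and stands beside the 127 selected genes. Renewed quantile scaling gave 202, with 138 shared, and centring on array medians gave 168, with 147 shared. Under 35 of 35 alternatives the 7 medians of differences moved by less than the SD between probe sets of a gene. That SD is of single probe sets and so is a wide yardstick for a median over the list. The median of spen minus control ran from -0.06 to 0.16 and so on both sides of 0, and the other medians kept their sign. For E(spl), Su(H) and EGFR against control the sign was set by the rule, so its constancy shows nothing. The number of listed genes with a selected probe set was 33 with gene means and 53 with renewed scaling, against 39. Of the other probe sets of these genes, 3.03% met the difference in all 3 stocks, and 9.09% did with renewed scaling. No paired analysis was possible because each group is 1 array. The alternatives for promoter motifs were not run, since no promoter sequence was used here. With 1 array per group nothing shows how far a level would vary between pools of larvae, and low levels are limited by background, which was highest in spen.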

Other observations

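The following selected genes are in none of the lists. They were picked by hand after their values were seen, and no theme of the selected genes is drawn from them. The BTB zinc finger gene chinmo stood at 11.49 in E(spl), 11.24 in Su(H), 11.09 in EGFR, 9.25 in spen and 10.08 in control, and fru, a dim gene of the same family, at 5.76, 5.59, 5.64, 3.82 and 4.03. Dad, the inhibitory Smad of BMP signalling, stood at 8.14 in E(spl), 8.24 in Su(H), 7.13 in EGFR, 5.53 in spen and 6.05 in control. The bZIP gene Pdp1 stood at 5.19, 6.82, 6.21, 3.71 and 3.96, and PKD, protein kinase D, at 6.25, 6.96, 6.07, 4.43 and 4.14, in the same order.

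The cyclin-dependent kinase gene Cdk2 stood at 8.16 in E(spl), 8.17 in Su(H), 8.08 in EGFR, 6.58 in spen and 6.89 in control. The kinetochore gene Spc105R stood at 9.73, 9.83, 9.58, 8.31 and 8.40 in the same order. In both, E(spl), Su(H) and EGFR differed by less than 0.3.

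The amino acid transporter gene path stood at 12.38 in E(spl), 11.60 in Su(H), 11.48 in EGFR, 10.28 in spen and 10.45 in control. The juvenile hormone binding protein genes Jhbp1 and Jhbp5 were both selected. Jhbp1 stood at 7.01 in E(spl), 7.73 in Su(H), 6.49 in EGFR, 5.11 in spen and 4.97 in control. Jhbp5 stood at 8.85, 8.40, 9.66, 7.85 and 7.35 in that order, so Jhbp1 was lowest in EGFR among the 3 stocks and Jhbp5 was highest there.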
